A study of Mus musculus with 10 samples.

Results

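The fatty acid desaturases and elongases expressed in mouse jejunum were followed across 10 RNA sequencing libraries. The members were taken as a named list of 10 genes out of the 55414 genes counted: Scd1, Scd2, Fads1, Fads2, Fads3, Elovl1, Elovl3, Elovl5, Elovl6 and Elovl7. All libraries came from male C57BL/6J mice with the genotype RetSat flox/flox, which carry Retsat alleles that Cre recombinase can delete. Retsat encodes retinol saturase, which saturates a double bond of retinol, a form of vitamin A. The 5 control libraries were villin-Cre-ERT2 (-) and the 5 RetSat ko libraries were villin-Cre-ERT2 (+). The villin promoter directs this Cre to the intestinal epithelium, and tamoxifen switches it on. Both groups received tamoxifen by intraperitoneal injection over 5 days, followed by 14 weeks on a high-fat diet (60% of energy). Ages are not given in the sources used here. Loss of the enzyme and presence of active Cre cannot be told apart in this design. It is not stated that every library is a separate animal, and the p-values cover only the spread among these libraries, which may be technical.

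Desaturases place double bonds in fatty acyl chains, and elongases lengthen them. The Scd enzymes turn saturated into monounsaturated acyl-CoA, and the Fads1 and Fads2 enzymes work with Elovl5 to convert dietary essential fatty acids into long polyunsaturated ones. Elovl6 lengthens palmitate to stearate, while Elovl1 and Elovl3 make saturated and monounsaturated very long chains. Several of their genes are known targets of SREBP-1c, LXR or PPAR factors in lipogenic tissues.

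Each library held 102844680 to 128730695 counts. Retsat was 440.6 ± 101 CPM (counts scaled to library size with TMM factors) in control against 19.6 ± 7.76 CPM in RetSat ko libraries (SD, n = 5 each), with a log2 fold change of -4.49 ± 0.277 (SE) and an edgeR adjusted p of 0.000101. All 6 markers used for the jejunum were present in all 10 libraries, Vil1 at 2137 to 3517 CPM. RetSat ko 1 stood apart from the other RetSat ko libraries: leaving it out moved the number of genes with an edgeR adjusted p under 0.05 from 6 to 846. Fold changes and ratios of the members are therefore given with and without it.

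In RetSat ko, 9 of the 10 members passed the filter on low counts and were tested. All 9 had positive log2 fold changes, as did 53.9% of all genes tested. However, 0 of the 9 reached an adjusted p under 0.05 by edgeR's quasi-likelihood F-test. Of all genes tested, 0.0322% did. DESeq2 and limma-voom also called 0 members. DESeq2 called 1.04% of the genes to which it gave an adjusted p, and limma-voom 0.0322% of all tested. At an unadjusted p of 0.05, edgeR held 3 members, Scd2, Fads3 and Elovl5, all higher in RetSat ko. The share of all tested genes was 12.2%, with 6.79% higher. The median log2 fold change of the 9 members was 0.28, and that of all genes tested was 0.020. Without RetSat ko 1, Scd2, Fads2 and Fads3 rose past the adjusted threshold in edgeR, against 4.45% of all genes tested passing and 1.95% passing as higher, and the median was 0.34. These 3 calls were lost when control 3 was left out as well (edgeR adjusted p 0.0570, 0.0570 and 0.0647). They were also lost with the adipocyte or the proliferating crypt cell score described below as covariate. Without RetSat ko 1 the crypt score did not overlap between genotypes, at -0.25 to -0.04 in control and 0.10 to 0.30 in RetSat ko. Score and genotype can therefore hardly be told apart in that fit. There the SE of Scd2 was 0.208 against 0.127 without the covariate, and genes called were 2 against 846. DESeq2 without RetSat ko 1 called Scd2, Fads2, Fads3 and Elovl5, where 16.8% of genes passed and 6.56% were higher. Bulk tissue was sequenced, so fewer cells of a type and less RNA per cell cannot be told apart.

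**Figure D1:**
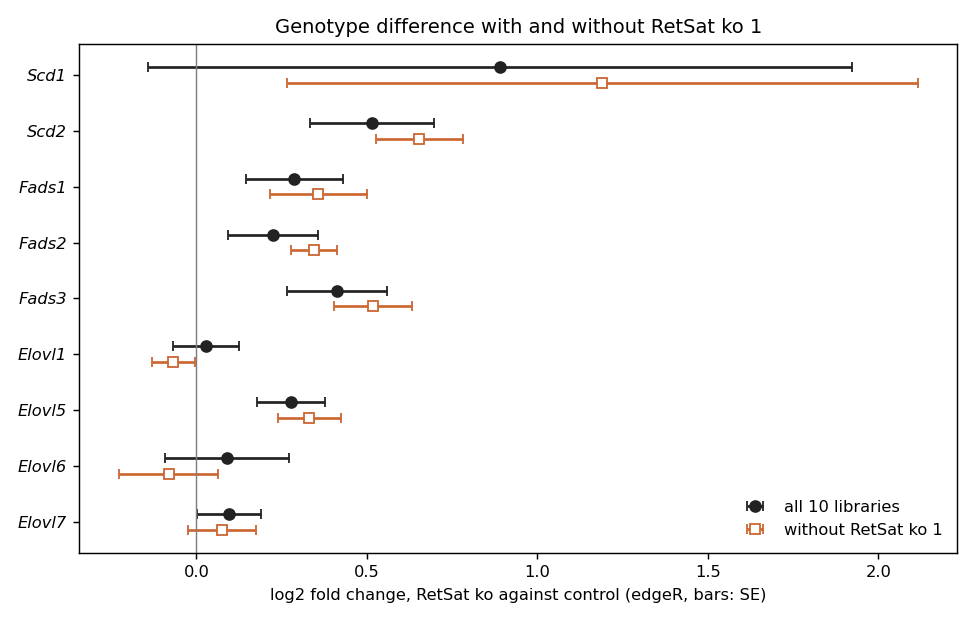
Log2 fold change of RetSat ko against control for the 9 tested members in edgeR, with all 10 libraries and without RetSat ko 1; bars are standard errors. With all libraries every point lies above 0, and without RetSat ko 1 those of Elovl1 and Elovl6 lie below it.

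Scd1 was the tested member most unequal between libraries. Scd1 (ENSMUSG00000037071.4, GRCm39 chromosome 19, 44382894 to 44396318, minus strand) is the main stearoyl-CoA desaturase of liver and fat. It held 8.77, 5.55, 50.4, 6.61 and 2.30 CPM in control 1 to 5. In RetSat ko 1 to 5 it held 1.70, 19.9, 20.6, 32.5 and 61.6 CPM. The groups overlapped at both ends: control 3 was the second highest of all libraries and RetSat ko 1 the lowest. Its log2 fold change was 0.89 ± 1.03 (SE), with an edgeR adjusted p of 0.757. Leaving out RetSat ko 1 gave 1.19 ± 0.925 with an edgeR adjusted p of 0.491. Without control 3 the log2 fold change was 2.24 with an edgeR adjusted p of 0.544, and without RetSat ko 4 and 5 it was -0.068. The highest library was 36.2-fold above the lowest, and the spread over the 10 libraries was larger than that of 99.4% of tested genes.

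Scd2, the isoform widespread outside the liver (ENSMUSG00000025203.7, chromosome 19, 44282113 to 44295303, plus strand), lies near Scd1. It held 11.1, 13.04, 9.53, 10.3 and 10.01 CPM in control 1 to 5. The RetSat ko libraries 1 to 5 held 9.20, 18.6, 12.8, 17.2 and 19.2 CPM. RetSat ko 1 was the lowest of all 10 libraries, and RetSat ko 2, 4 and 5 were above every control. Its log2 fold change was 0.51 ± 0.183 with an edgeR adjusted p of 0.323, and 0.65 ± 0.127 with an adjusted p of 0.0298 without RetSat ko 1. Scd1 gave 46.9%, 32.2%, 85.5%, 41.7% and 20.4% of the summed Scd1 and Scd2 level per kilobase of exon in control 1 to 5. The RetSat ko shares were 17.2%, 54.4%, 64.2%, 67.8% and 78.2%. The log2 ratio of Scd2 to Scd1 per kilobase was 0.23 ± 1.70 in control and -0.35 ± 1.57 in RetSat ko libraries (SD, n = 5 each). A two-sided exact permutation test of that difference gave p = 0.579, adjusted over 3 ratios p = 0.579. The difference of the log2 ratio was -0.57, and it was -1.23 without RetSat ko 1 (exact permutation, adjusted p = 0.333), -1.27 without control 3 and -0.14 without control 5. Of the 50-base words in Scd1 exons 4.56% also occur in another gene, and of those in Scd2 exons 3.97%, so a small part of their counts is uncertain.

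**Figure D2:**
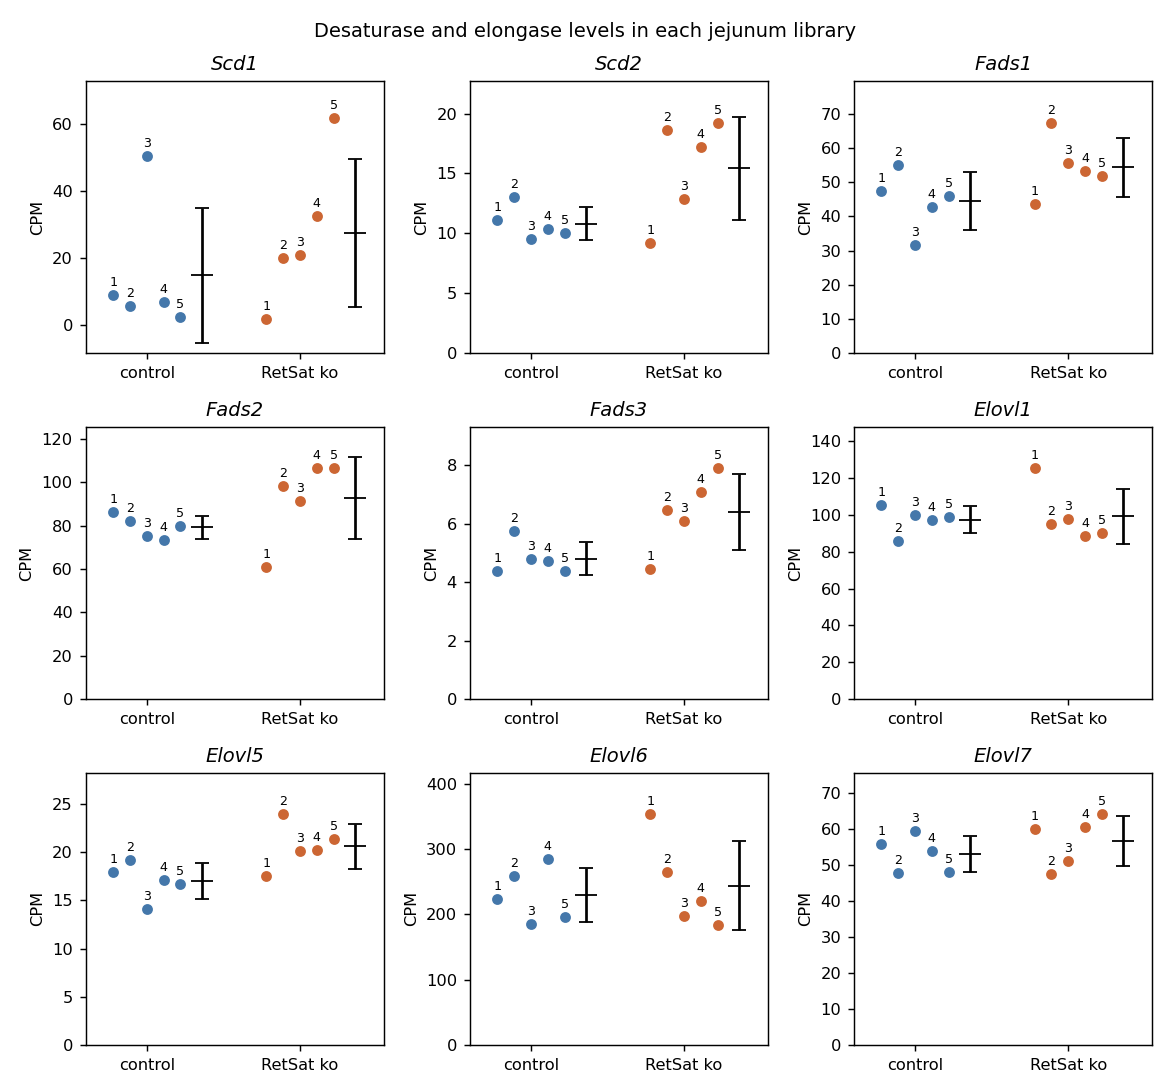
CPM of 9 members in each library, with libraries numbered and the mean ± SD (n = 5) drawn beside each group. Scd1 of control 3 and Elovl1 of RetSat ko 1 stand away from their groups, and RetSat ko 1 is the lowest library for Scd1, Scd2 and Fads2.

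The front-end desaturases Fads1, Fads2 and the related Fads3 lie in a cluster on chromosome 19. Fads2, the delta-6 desaturase (ENSMUSG00000024665.9, 10040129 to 10079110, minus strand), held 86.5, 82.2, 75.1, 73.3 and 79.7 CPM in control 1 to 5. In RetSat ko 1 to 5 it held 60.8, 98.3, 91.4, 106.4 and 106.4 CPM. RetSat ko 1 was below every control, and the other 4 RetSat ko libraries were above every control. The log2 fold change was 0.22 ± 0.131 with an edgeR adjusted p of 0.503, and 0.34 ± 0.0667 with an adjusted p of 0.0298 without RetSat ko 1.

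Fads3, a desaturase that acts on sphingoid bases (ENSMUSG00000024664.6, 10018933 to 10037474, plus strand), was the least abundant of the Fads genes. It held 4.38, 5.76, 4.78, 4.74 and 4.39 CPM in control 1 to 5. Its RetSat ko values 1 to 5 were 4.44, 6.47, 6.10, 7.08 and 7.89 CPM. RetSat ko 1 lay among the controls and the other 4 lay above all of them. The log2 fold change was 0.41 ± 0.148 with an edgeR adjusted p of 0.323, and 0.52 ± 0.114 with an adjusted p of 0.0353 without RetSat ko 1. Fads1, the delta-5 desaturase (ENSMUSG00000010663.6, 10160252 to 10174241, plus strand), ranged from 31.6 to 55.0 CPM in control and from 43.7 to 67.4 CPM in RetSat ko. Its log2 fold change was 0.29 ± 0.143 with an edgeR adjusted p of 0.438, and 0.36 ± 0.142 with an adjusted p of 0.162 without RetSat ko 1. The log2 ratio of Fads2 to Fads1 per kilobase was 1.40 ± 0.245 in control and 1.30 ± 0.258 in RetSat ko libraries (SD, n = 5 each), with two-sided exact permutation p = 0.556 and adjusted p = 0.579. Without RetSat ko 1 the difference of this ratio was -0.028 (exact permutation, adjusted p = 0.873).

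No member separated all 5 RetSat ko from all 5 control libraries, which 2.31% of tested genes did in either direction. RetSat ko 2 to 5 were all above every control for Fads2, Fads3 and Elovl5, which held for 5.93% of genes tested without RetSat ko 1. RetSat ko 1 was the lowest of all libraries for Scd1, Scd2 and Fads2, against 15.8% of tested genes, and the highest for Elovl1 and Elovl6, against 15.6%.

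Elovl5, the elongase of polyunsaturated chains (ENSMUSG00000032349.14, chromosome 9, 77824646 to 77891801, plus strand), held 17.9, 19.2, 14.1, 17.1 and 16.7 CPM in control 1 to 5. In RetSat ko 1 to 5 it held 17.5, 23.9, 20.1, 20.2 and 21.4 CPM. RetSat ko 1 again lay among the controls. The log2 fold change was 0.28 ± 0.0986 with an edgeR adjusted p of 0.321, and 0.33 ± 0.0914 with an adjusted p of 0.0619 without RetSat ko 1. Elovl6 (ENSMUSG00000041220.11, chromosome 3, 129326004 to 129432144, plus strand) held 223.8, 257.9, 185.4, 284.3 and 195.6 CPM in control 1 to 5. The values in RetSat ko 1 to 5 were 353.4, 264.6, 197.3, 220.9 and 183.8 CPM. RetSat ko 1 was the highest and RetSat ko 5 the lowest of all libraries. Its log2 fold change was 0.089 ± 0.182 with an edgeR adjusted p of 0.870, and -0.082 ± 0.145 with an adjusted p of 0.776 without RetSat ko 1. The log2 ratio of Elovl6 to Elovl5 per kilobase was 2.87 ± 0.191 in control and 2.66 ± 0.472 in RetSat ko libraries (SD, n = 5 each), with two-sided exact permutation p = 0.373 and adjusted p = 0.579. Without RetSat ko 1 the difference of this log2 ratio was -0.41, with an exact permutation p of 0.0159 and an adjusted p of 0.0476. That p is the smallest that 5 against 4 libraries allow. RetSat ko 1 had the highest log2 ratio of all libraries, 3.47, followed by control 4 with 3.19. Leaving out any other single library gave exact permutation adjusted p of 0.619 to 0.857.

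None of the remaining elongases passed the test with or without RetSat ko 1. Elovl1 (ENSMUSG00000006390.16, chromosome 4, 118285290 to 118290150, plus strand) held 86.0 to 105.5 CPM in control, and 125.3, 94.8, 97.9, 88.8 and 90.0 CPM in RetSat ko 1 to 5. Only RetSat ko 1 was outside the control range. Its log2 fold change was 0.028 ± 0.0965 with an edgeR adjusted p of 0.927, and -0.068 ± 0.0637 without RetSat ko 1. Its exons overlap those of Cdc20 on the other strand by 53 bases, and counting did not use strand. Elovl7, an elongase of long chains (ENSMUSG00000021696.10, chromosome 13, 108350938 to 108422217, plus strand), held 47.9 to 59.5 CPM in control and 47.6 to 64.2 CPM in RetSat ko, with a log2 fold change of 0.095 ± 0.0942 and an edgeR adjusted p of 0.709. Leaving out RetSat ko 1 gave 0.074 ± 0.100 with an adjusted p of 0.699. Elovl3, best known from skin, brown fat and liver (ENSMUSG00000038754.6, chromosome 19, 46120336 to 46124133, plus strand), was near absent at this depth. It had 2, 0, 0, 0 and 4 counts in control 1 to 5 and 0, 2, 0, 0 and 6 counts in RetSat ko 1 to 5, and the filter on low counts removed it. Tested without a filter, Elovl3 had a log2 fold change of 0.19 ± 1.33 with an edgeR adjusted p of 0.982.

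Per kilobase of exon, which allows levels of different genes to be compared, Elovl1 and Elovl6 led in control with 35.7 ± 2.63 and 35.7 ± 6.48 CPM per kilobase (SD, n = 5). Fads2 followed with 24.1 ± 1.62, Elovl7 with 13.2 ± 1.26 and Fads1 with 9.25 ± 1.77 CPM per kilobase. Elovl5 had 4.83 ± 0.536, Scd1 3.01 ± 4.10, Scd2 1.98 ± 0.252 and Fads3 1.27 ± 0.149 CPM per kilobase. The values of Elovl1 and Elovl6, of Elovl5 and Scd1, and of Scd1 and Scd2 overlapped between neighbours in this control order, and those of other neighbours did not. Scd1 was above Scd2 in 1 of 5 control and in 4 of 5 RetSat ko libraries.

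**Figure D3:**
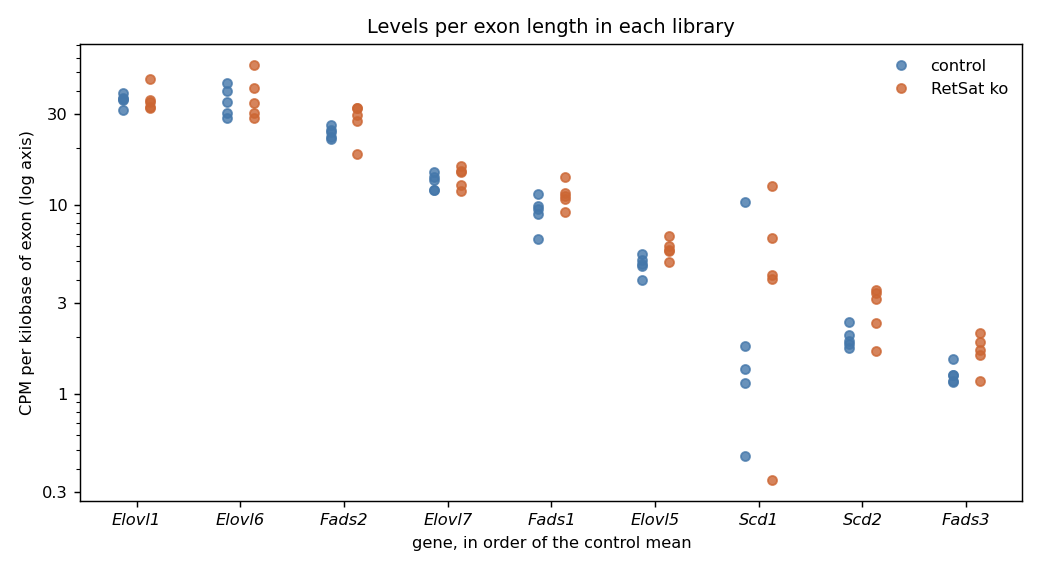
CPM per kilobase of exon of each tested member in control and RetSat ko libraries on a log axis, in descending order of the control mean. Elovl1 and Elovl6 have the highest means in both groups, but in RetSat ko 5 Fads2 (32.3) is above Elovl6 (28.6). The Scd1 points are the most scattered.

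Promoters of 6 of the 10 members (Fads2, Fads3, Elovl1, Elovl5, Elovl6 and Elovl7) were matched in the RefSeq table of GRCm38.p6, a build older than the counts. They gave 7 windows, and the 3 shown are the only ones that hold CCAAT. RetSat ko 1 lay among the controls for Fads3 and Elovl5 and was the highest library for Elovl1. Capitals mark CCAAT (the NF-Y box), CACGTG (an E-box) and GGGCGG (a GC box) on either strand.
Fads3, chr19:10041298-10041547, plus strand: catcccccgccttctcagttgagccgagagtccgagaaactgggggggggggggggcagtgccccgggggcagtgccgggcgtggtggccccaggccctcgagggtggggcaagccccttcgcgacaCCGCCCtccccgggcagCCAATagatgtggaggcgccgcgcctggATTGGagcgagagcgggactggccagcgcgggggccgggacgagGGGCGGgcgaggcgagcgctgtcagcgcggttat
Elovl5, chr9:77917115-77917363, plus strand: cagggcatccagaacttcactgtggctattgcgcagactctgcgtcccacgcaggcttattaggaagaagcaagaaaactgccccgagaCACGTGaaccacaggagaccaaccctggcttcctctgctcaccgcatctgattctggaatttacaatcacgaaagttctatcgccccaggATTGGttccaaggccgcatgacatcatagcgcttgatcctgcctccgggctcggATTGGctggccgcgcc
Elovl1, chr4:118427843-118428092, plus strand: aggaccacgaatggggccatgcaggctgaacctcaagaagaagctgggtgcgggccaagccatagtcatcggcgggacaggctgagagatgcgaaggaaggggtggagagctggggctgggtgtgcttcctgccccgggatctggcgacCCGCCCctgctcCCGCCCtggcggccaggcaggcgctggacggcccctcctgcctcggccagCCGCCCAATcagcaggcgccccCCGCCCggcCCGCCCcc
Fads3 and Elovl5 each hold CCAAT at 2 places, and Elovl1 holds it at 1 place where it overlaps a GC box. CCAAT was in 3 of the 7 member windows and in 37.4% of the 32851 promoters of the table. CACGTG was in 1 of 7 against 7.15%, and GGGCGG in 5 of 7 against 35.7%. A sterol regulatory element consensus was in 0.234% of all promoters and a PPAR-type direct repeat in 0.0396%, and each was in 0 of the 7 member windows. Such matches describe letters only.

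Some members varied together over the libraries, measured on log2 CPM with a prior count of 2. Of the 36 member pairs, 7 had a Pearson r past an adjusted permutation p of 0.05, and 3 of these also had a Spearman rho past it. Scd2 and Fads2 had r = 0.899 and rho = 0.891 (adjusted permutation p 0.00297 and 0.0227, n = 10 libraries), and r = 0.882 without RetSat ko 2 and 5. Scd2 and Elovl5 had r = 0.872 and rho = 0.903 (adjusted permutation p 0.00297 and 0.0227), and r = 0.777 without the same libraries. Fads1 and Elovl5 had r = 0.952 and rho = 0.855 (adjusted permutation p 0.00297 and 0.0355), and r = 0.830 without control 3 and RetSat ko 2. Within genotypes, from deviations around the group means, these r were 0.899, 0.787 and 0.951. No pair with Scd1 passed, and Scd1 and Fads1 had r = 0.046.

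**Figure D4:**
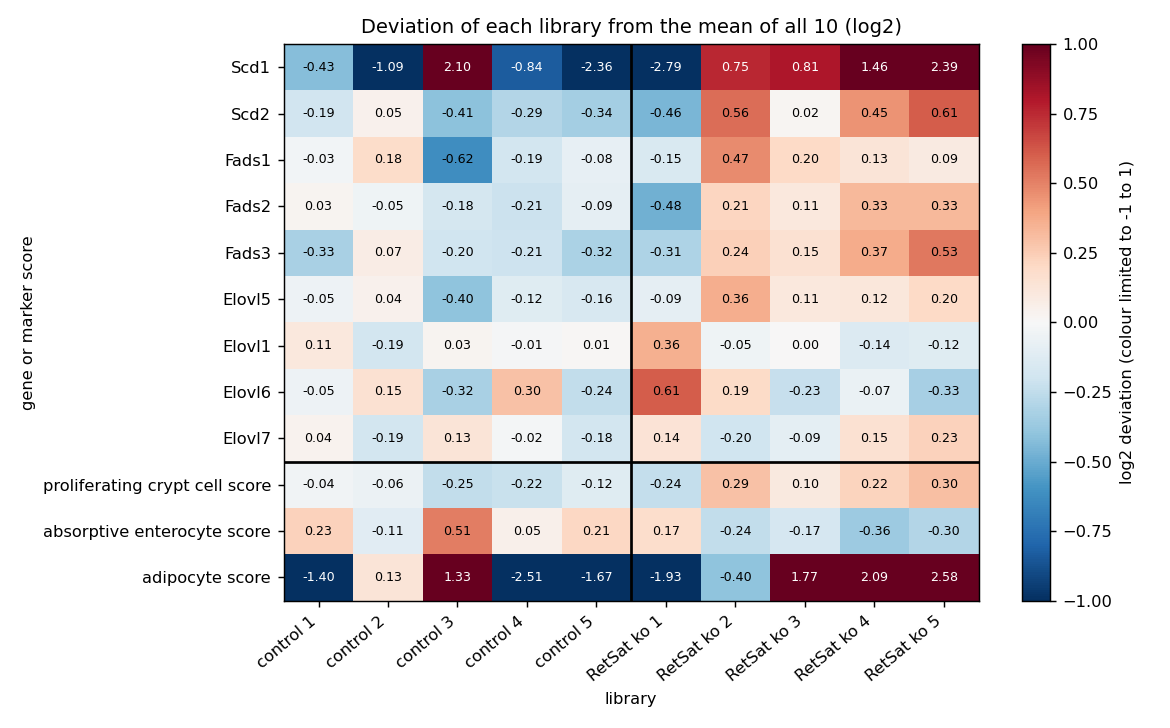
Log2 CPM of each tested member in each library as the difference from its mean over the 10 libraries, with the marker scores added as rows and color for the size of the difference. RetSat ko 1 is low for Scd1, Scd2 and Fads2 and high for Elovl1 and Elovl6.

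Marker lists of other cell types moved with several members, which was examined after the values were seen. A score was the mean over a list of log2 CPM centred on each gene. The score of 10 proliferating crypt cell genes was -0.25 to -0.04 in control, -0.24 in RetSat ko 1 and 0.10 to 0.30 in RetSat ko 2 to 5. All 10 had positive log2 fold changes, against 53.9% of all genes tested. Of the 10, 0 passed in edgeR with all libraries, and 6 had an unadjusted p under 0.05, against 12.2% of all genes tested. Without RetSat ko 1, 9 of the 10 rose past the adjusted threshold, against 1.95% of all genes tested. Its summed level was 338.7 to 383.4 CPM in control and 327.8 to 479.9 CPM in RetSat ko. Across 10 libraries and 27 relations tested, this score had r = 0.967 and rho = 0.939 with Scd2 (adjusted permutation p 0.000945 and 0.00396; r = 0.930 without RetSat ko 2 and 5, 0.949 within genotypes). It had r = 0.926 and rho = 0.927 with Fads2 (adjusted permutation p 0.000945 and 0.00396), and r = 0.918 without those libraries. Fads1 (r = 0.781) and Elovl5 (r = 0.885) also passed in both r and rho, so 4 of 9 members did. Outside RetSat ko 1 this score did not overlap between the genotypes. A fit of all 10 libraries therefore tells score and genotype apart largely through RetSat ko 1. Adding the score to that fit changed the SE from 0.183 to 0.102 for Scd2 and from 1.03 to 2.55 for Scd1. With this score as covariate, 0 members passed in edgeR. The log2 fold change was then -0.049 ± 0.102 (SE) for Scd2, -0.18 ± 0.0725 for Fads2, 0.0081 for Fads1, 0.066 for Fads3 and 0.069 for Elovl5. It was larger than without the covariate for Elovl1 (0.22 ± 0.0846), Elovl6 (0.34 ± 0.206) and Elovl7 (0.15 ± 0.125). For Scd1 it was -0.76 ± 2.55, and 3.88 ± 2.73 when RetSat ko 1 was left out as well. Of 15 absorptive enterocyte genes, all had negative log2 fold changes, while 53.9% of all genes tested were positive. Of these 15, 0 passed in edgeR with all libraries, and 5 had an unadjusted p under 0.05, against 12.2% of all genes tested. Without RetSat ko 1, 3 of the 15 fell past the adjusted threshold, against 475 of all 19001 genes tested. Their summed level was 50410 to 74979 CPM in control and 45606 to 65966 CPM in RetSat ko. Their score ran the other way for 4 of 9 members that passed in both r and rho. These were Scd2 (r = -0.878), Fads2 (r = -0.738), Fads3 (r = -0.871) and Elovl5. With Elovl5 the score had r = -0.897 and rho = -0.867 (adjusted permutation p 0.00419 and 0.0126), and r = -0.870 without control 3 and RetSat ko 4.

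The adipocyte score ran with Scd1, with r = 0.838 and rho = 0.830 (adjusted permutation p 0.0109 and 0.0192; r = 0.840 without control 4 and RetSat ko 5). Of its 9 genes 7 had positive and 2 negative log2 fold changes. In edgeR, where 12.2% of all genes tested had an unadjusted p under 0.05, 2 of these 9 did and 0 passed. They summed to 257.3 to 432.5 CPM in control and 237.9 to 388.3 CPM in RetSat ko, mostly Cidec and Lipe, which the epithelium also expresses. Adipoq, the defining adipokine, was 2.57 CPM in control 3 and reached 6.58 CPM in RetSat ko 5. Adipoq and Lep were at 0 in control 4, and Retn in control 1, 4 and 5 and RetSat ko 1. The score had r = 0.796 and rho = 0.794 with Fads3 (adjusted permutation p 0.0258 and 0.0275; r = 0.722 without the same libraries). With the adipocyte score as covariate the log2 fold change was -0.35 ± 0.727 for Scd1, 0.062 ± 0.131 for Fads2 and 0.22 ± 0.1395 for Fads3. It was 0.35 ± 0.200 for Scd2, 0.12 ± 0.0895 for Elovl1 and 0.30 ± 0.128 for Elovl6. No member passed in edgeR.

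Other marker lists also differed between libraries. Acinar genes of the pancreas summed to 7.75 to 261.2 CPM in control and 8.14 to 2835 CPM in RetSat ko, highest in RetSat ko 2, with 11 of 11 tested positive and a median log2 fold change of 3.14. Paneth cell genes summed to 546.5 to 1870 CPM in control and 1075 to 2784 CPM in RetSat ko, with 5 of 5 positive and a median of 0.83. No gene of either list passed in edgeR, and 0 acinar and 2 Paneth cell genes had an unadjusted p under 0.05. The share of all genes tested was 12.2%. With the acinar score as covariate the log2 fold change was 0.54 ± 0.193 for Scd2 and 1.56 ± 0.978 for Scd1. The part of the Paneth cell genes in the members' values was not tested.

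**Figure D5:**
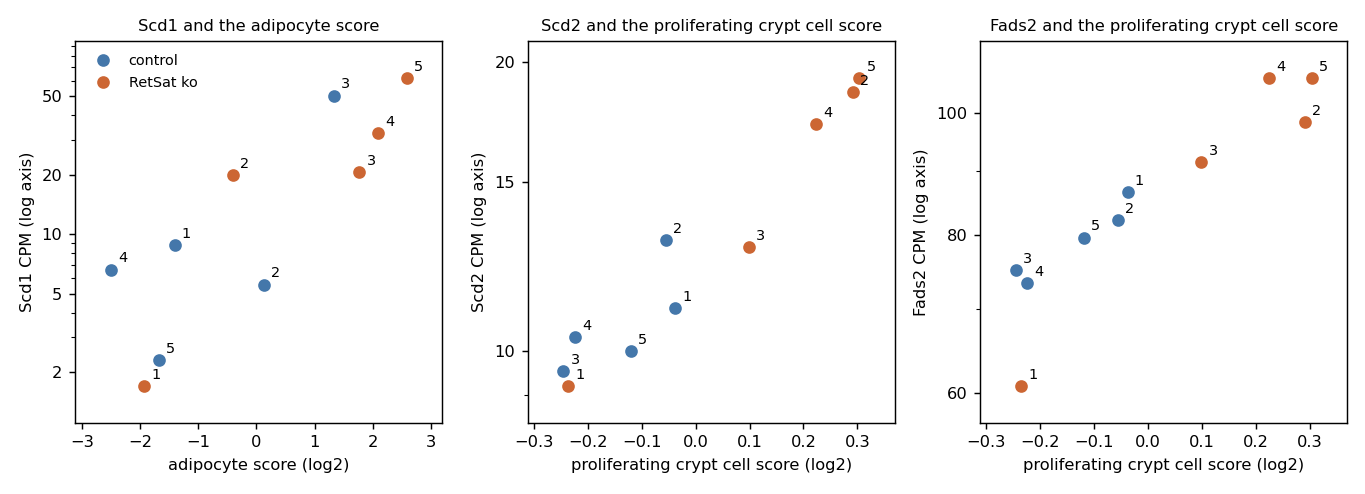
CPM of a member (log axis) against a marker score (log2) for 3 pairs, with 1 numbered point per library colored by genotype. Scd2 and Fads2 rise with the crypt score, and Scd1 with the adipocyte score, which is highest in RetSat ko 5, 4 and 3, followed by control 3.

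By the highest Pearson r over 10 libraries among 10043 genes, the genes most like Scd1 were Lpl (0.914), Mrps2 (0.906) and Rbbp6 (0.904). For Scd2 they were Ccna2 (0.984), Racgap1 (0.980) and Rfc4 (0.978), and for Fads2 Cbx5 (0.985), Tpx2 (0.983) and Aurkb (0.982). For Elovl6 they were Alcam (0.930), Asah1 (0.929) and Dynlt3 (0.926). Of the 50-base words in Elovl6 exons 3.98% also occur in other genes, Alcam among them. Aurkb is also among the proliferating crypt cell genes of the score above, so its r with Fads2 is not separate from that score. All these r are the highest of a search over the same 10 libraries and were not tested.

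Genes around the members in the pathway were read by list, and 0 genes of any list passed edgeR's adjusted threshold. Of 10 tested genes that supply acyl chains, 6 were higher and 4 lower, with a median log2 fold change of 0.046. Thrsp, a regulator of lipogenesis, held 0.397 to 0.625 CPM in control and 0.647 to 2.61 CPM in RetSat ko (edgeR adjusted p = 0.291), and it rose past the threshold without RetSat ko 1 (adjusted p = 0.0353). Fasn, fatty acid synthase, had a log2 fold change of 0.23 and Mcat, of mitochondrial fatty acid synthesis, 0.16. Of 15 genes that use the products, 3 were higher and 12 lower, with a median of -0.19; Lpcat3, which puts polyunsaturated chains into phospholipids, had -0.30, Agpat3 -0.24 and Soat2 -0.25. Of 13 regulators, 5 were higher and 8 lower, with a median of -0.061; the nuclear receptor genes Ppara, Rxra and Pparg had -0.54, -0.19 and -0.20. Of 10 tested genes of the elongation cycle and its electron supply, 7 were higher and 3 lower, with a median of 0.038, and Hacd1, Cyb5b and Cyb5r1 had 0.24, -0.21 and 0.15. Of 5 tested other desaturases and elongases, 2 were higher and 3 lower, and Elovl2, Fads6 and Degs1 had 1.10, -0.35 and -0.096. Adjusted p of these named genes lay between 0.291 and 0.642.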

How the data were processed

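The authors deposited raw counts per gene for each library. Trimming was with Trimmomatic and alignment to GRCm39 with STAR, per the submitters' processing notes. The counts, per the file headers, were made with featureCounts 2.0.1 over GENCODE M28 exons, without a strand or pair option. Of counts from 1 to 20, 64.5% were even, so if reads came in pairs a fragment may count more than 1 time, and counting error is then understated.

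Genes were kept with filterByExpr, scaled with TMM and tested with edgeR 4.0.16 in R 4.3.3 (quasi-likelihood, robust, genotype only; Benjamini-Hochberg over 18654 genes, threshold 0.05). CPM use the TMM-adjusted library size. Ratios per library were tested with two-sided exact permutation, where 5 against 5 allows no p under 0.00794 and 5 against 4 none under 0.0159. Correlations used 100000 permutations. Simulated counts of 18330 genes held 50 genes changed by each of 1.5-, 2-, 4- and 8-fold. Of those changed 1.5-fold 60% were recovered, and of those changed 2-fold 80%, with 10 false calls among 178. The main fit called 6 genes, which makes its Benjamini-Hochberg cutoff stricter than that of the simulation. These shares therefore do not give the power for the members. No 2 libraries were duplicates: chi-square per degree of freedom was at least 55.6 over 45 pairs.

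Members and lists were chosen with earlier results of these data known. Named genes are the 10 members, Retsat, the 3 genes of smallest unadjusted p per companion list and any called, and the 3 genes most like Scd1, Scd2, Fads2 and Elovl6. Alternatives were other scalings, filters and tools (DESeq2 1.42.0, limma 3.58.1, sva 3.50.0), covariates, a replicate block and leaving out libraries. Crypt score covariates, the pair RetSat ko 1 and control 3, and score correlations were chosen after seeing the data. So were DESeq2 and the adipocyte covariate without RetSat ko 1.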

Additional observations from a re-analysis of the deposited data

Results flagged for a closer look

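In 24 groups of 5 libraries tested for a single distant library, 2 held one, and chance gives about 1 in 20. Scd1 in control 3 was 50.4 CPM, where the next highest control was 8.77 CPM. Elovl1 in RetSat ko 1 was 125.3 CPM, where the next highest RetSat ko library was 97.9 CPM. The gap took 0.865 of the range for Scd1 and 0.751 for Elovl1, both above Dixon's 95% limit for 5 values. Members were tested on CPM and not on log2 CPM, so these flags hold for that scale only.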

How the results depend on the processing

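The number of genes called was 6; it was 123 with DESeq2 and 12 with sample-weighted voom. Leaving out 1 library gave 5 to 846, the highest without RetSat ko 1. Without RetSat ko 1 and control 3 it was 228, and without RetSat ko 1 it was 82 with the adipocyte covariate, 2 with the crypt covariate and 2446 with DESeq2. Members called were 0; leaving out 1 library gave 0 to 3, and DESeq2 without RetSat ko 1 gave 4. Without RetSat ko 1, the further omission of control 3, the adipocyte covariate and the crypt covariate each gave 0 members. In the last of these the crypt score did not overlap between the genotypes, so score and genotype can hardly be told apart. The log2 ratio of Elovl6 to Elovl5 differed by -0.41 to -0.10 when 1 library was left out, and that of Fads2 to Fads1 by -0.17 to 0.00047, reversed without control 3. That of Scd2 to Scd1 differed by -1.27 to -0.14, and reversed to 0.16 without RetSat ko 4 and 5. The cause was not tested.

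Signs reversed for Elovl1 with sample-weighted voom (-0.050), the acinar covariate (-0.0012), without control 2 (-0.014) and without RetSat ko 1 (-0.068, the lowest of -0.068 to 0.065 when 1 library was left out). They did so also without RetSat ko 1 and control 3 (-0.064), and without RetSat ko 1 with the adipocyte covariate (-0.027) or DESeq2 (-0.083). Elovl6 reversed with weighted voom (-0.012), the acinar covariate (-0.031), without RetSat ko 1 (-0.082, of -0.082 to 0.18 when 1 library was left out), without it and control 3 (-0.15), and without it with the crypt covariate (-0.24) or DESeq2 (-0.096). Elovl7 reversed without RetSat ko 4 and 5 (-0.012) and with the adipocyte covariate without RetSat ko 1 (-0.087). With the crypt covariate Scd1 reversed to -0.76 (SE 2.55; 3.88, SE 2.73, without RetSat ko 1), Scd2 to -0.049 and Fads2 to -0.18; without RetSat ko 1 it reversed Scd2 to -0.075, Fads1 to -0.22 and Elovl5 to -0.080. Scd1 reversed to -0.35 with the adipocyte covariate and to -0.068 without RetSat ko 4 and 5.

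With the replicate block, edgeR called 4 genes and 0 members, and the median was 0.28. Same-numbered libraries had correlations of -0.147 to 0.000413, so the numbers were not read as pairs, and no control correlated best with its own number. Sign flips of the 5 pairs, which allow no p under 0.0625, gave ratio differences of -0.57, -0.098 and -0.21, the same as unpaired, with permutation p of 0.750, 0.562 and 0.375. Elovl3 was tested only without a filter.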

Other observations

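Elovl2, an elongase of polyunsaturated chains known from liver, was 1.04 CPM in RetSat ko 5 and 0.0588 to 0.206 CPM in the other 9 libraries. Alb, the albumin gene, was 94.7 CPM in RetSat ko 5 and 1.14 to 7.84 CPM in the others. The 5 hepatocyte genes summed to 124.7 CPM there and to 9.41 to 17.0 CPM in the others. Their part in the Elovl2 value was not tested.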
